A study of Mus musculus with 12 samples.

Results

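A set of 74 designed elements, each carrying a paired base change that inactivates both arms of a dimeric homeodomain site, was compared with the unmodified elements of the same regions in a reporter assay of mouse retina. The members were chosen by name: each was listed in the design as a dimer-site change within a region whose dimer site had also been saturated base by base. They made up 74 of 14987 elements, came from 63 of the 100 regions with such a saturated window, and were read through 489 of the 100000 barcodes. Of these regions, 11 held 2 members, which share 1 unmodified element as their control. In CRE-seq, the reporter assay used, many short DNA elements are cloned upstream of a promoter and measured together, each through its own barcodes in the reporter RNA.

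Elements were 100 bp long and sat before one of 2 promoters of DsRed, a red fluorescent protein: pRho, the promoter of rhodopsin, or pCrx, that of Crx. Whole retinas of newborn wild-type CD1 mice received 30 micrograms of a plasmid library, together with 30 micrograms of a GFP plasmid, by electroporation and were then cultured whole for 8 days. A replicate pooled 5 retinas, 3 such pools were made for each promoter, and every pool gave a cDNA and a DNA library. The labels give the same strain, age and genotype for all groups and name no other treatment, so they differ in the promoter and in the kind of nucleic acid. The readout covers whatever retinal cells took up the plasmids and use these promoters, and no cell type was sorted.

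CRX is a homeodomain transcription factor that photoreceptors need to express their genes, and its preferred site contains TAATCC. Homeodomain proteins contact the TAAT-like core, and paired-type homeodomain proteins can bind as dimers to cores in opposite orientation that are separated by a short spacer. Rhodopsin encodes the light-sensing protein of rods, the most numerous photoreceptors of the mouse retina, and the promoter of Crx is active in photoreceptors and their precursors. The comparison asks how much of an element's activity depends on such a site, and whether the answer is the same on both promoters.

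The members' sites span 13 bp. Each has a core, a spacer of 3 bp and a second core that reads as a TAAT-like sequence on the other strand. Every member changes the same places of its site: base 4 of the site goes from A to C and base 10 from T to G, 6 bp apart, which alters the second A of each core. The first set shown holds the sites with the lowest and the highest effects on the 2 promoters, since the largest changes rest on them. Sequences are printed 5′ to 3′ in the orientation of the designed oligo, before the change, with the bases to be changed in capitals. Coordinates are in mm9. They take the element as the central 100 bp of the region that its name gives, which was assumed and, like the strand, not checked against the genome.
chr8:41511143-41511242: ctaAgaagcTtag
chr10:19053567-19053666: taaAgaggaTtat
chr8:61013519-61013618: ataAgaggaTtag
chr14:35424931-35425030, site 2: gtaAtccaaTtac
chr7:135012900-135012999, site 1: aaaAtaggaTtaa
chr14:48846549-48846648, site 1: gtaAgtggaTtat
chr19:38805436-38805535: ctaAgctcaTttc
After the change the first of these reads ctaCgaagcGtag. Its changes, A30C and T36G when counted from the first base of the element, lie in a site at chr8:41511169-41511181. In the element at chr10:19053567-19053666 the site lies at chr10:19053579-19053591, and the right arm reads TAATCC on the other strand. Across all members there were 70 different sites. A TAATCC arm was present in 30 members, as the left arm in 13 and as the right arm in 17. By core, 21 members paired TAAT with TAAG, 20 TAAT with another core, 16 TAAG with TAAG, 12 TAAG with another core and 5 TAAT with TAAT. The commonest of 16 spacers were AGG in 14 members, CAG in 12, CTG in 12 and CCT in 11. Elements were not assigned to genes, because no annotation of mm9 was used here.

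All 74 members and their parents passed the filter on DNA reads. The lowest count of any member or parent was 244 reads in a DNA library and 60 in a cDNA library. Library totals ran from 31198771 to 36500857 reads for DNA and from 24726849 to 31842705 for cDNA. Activity is given as log2 of cDNA over DNA, set so that the typical element of a library is at 0, and a value below 0 means less reporter RNA per plasmid than that element gives. An effect is the activity of the changed element minus that of its parent, as fitted by edgeR from 3 replicates. Its SE is the absolute effect divided by the root of the fit's F statistic. The spread behind that statistic is moderated across the fit, so the SE is not the spread of the 3 replicate effects. The replicates share their barcodes, so this SE leaves out differences between barcodes, and calls were therefore also made with barcodes as units.

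Loss of both arms lowered most of the elements. On pRho, 44 of the 74 changed elements fell, 13 rose and 17 did not pass the test (edgeR quasi-likelihood test, Benjamini-Hochberg adjusted p under 0.05 over all 13717 pairs of a modified element and its parent). Over all modified elements 43.7% fell and 16.3% rose on this promoter. The median effect of the members was -0.46, which leaves 72.7% of the parent's activity, beside a median of -0.18 over all modified elements. Single effects ran from -2.91 to 2.41. Testing barcodes as units, 35 members fell and 8 rose, against 23.5% and 5.62% of all modified elements. The unmodified elements ranged from -2.40 to 1.68 with a median of 0.42, and the changed ones from -3.18 to 1.17 with a median of -0.38.

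The median effect was further from 0 on pCrx. There, 50 members fell, 8 rose and 16 did not pass the same test, while 43.7% of all modified elements fell and 10.6% rose. The median effect was -0.96, which leaves 51.4% of the parent's activity, beside -0.26 over all modified elements, and effects ran from -3.35 to 3.05. Tested on barcodes, 48 fell and 5 rose, beside 28.1% and 4.80% of all. Parents had a median activity of 0.80 on pCrx and changed elements one of -0.32. The replicate values of parent and changed element did not overlap for 54 members on pRho and 60 on pCrx, and for 63.4% and 58.2% of all modified elements. A separate series of 230 changes of both arms elsewhere in the library had medians of -0.26 on pRho and -0.60 on pCrx. Of these changes, 115 on pRho and 139 on pCrx lowered the element, while 58 (25.2%) and 42 (18.3%) raised it. Among the members the share of rises was smaller, at 17.6% on pRho and 10.8% on pCrx, near the 16.3% and 10.6% of all modified elements. Parents of the members and of that series were not matched in activity, and the difference in shares was not tested.

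The lowest effect on pRho was at chr8:41511143-41511242, where both cores read TAAG. The parent's activity was 1.40, 1.61 and 1.48 in the 3 replicates and that of the changed element -1.21, -1.44 and -1.61. All replicates of the parent lay above the typical element and all of the changed element below it. The effect was -2.91 ± 0.11 (SE, n = 3; adjusted p = 1.6e-28), leaving 13.3% of the activity. On pCrx the same change took the element from 1.62, 1.75 and 1.80 to -0.29, -0.57 and -0.43, an effect of -2.15 ± 0.13. This element keeps its 3 copies of TAAT elsewhere, none of which the change touched.

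The next lowest were at chr10:19053567-19053666 and chr13:44327013-44327112, both of which pair AAAG with a TAATCC arm. At chr10:19053567-19053666 the parent gave 0.73, 0.76 and 0.57 on pRho and the changed element -1.58, -1.50 and -1.69. The effect was -2.27 ± 0.12, and that on pCrx was -1.18 ± 0.17. Its only TAAT was removed by the change. At chr13:44327013-44327112 the site reads ttaAtcctcTttc. Values on pRho went from 0.46, 0.53 and 0.71 to -1.64, -1.51 and -1.42, with no overlap between parent and changed element. Effects there were -2.09 ± 0.10 on pRho and -1.07 ± 0.12 on pCrx. For both elements the fall on pCrx was the smaller, by 1.10 ± 0.20 and 1.02 ± 0.16 in the test of the promoter difference (edgeR, adjusted p = 1.5e-05 and 6e-07).

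A pair of TAAT cores made up the site at chr1:182368850-182368949, ctaAtctgaTtag. On pRho the parent gave 1.05, 1.28 and 1.24 and the changed element -0.80, -0.83 and -0.60. Its effect was -1.93 ± 0.10 on pRho and -2.45 ± 0.15 on pCrx, where values went from 1.34, 1.30 and 1.06 to -1.07, -1.51 and -1.08. It is the member that stood among the 5 lowest on both promoters. The fifth on pRho was site 2 at chr3:107897193-107897292, ataAgcagcTtag, in an element with no TAAT at all. It went from 1.05, 1.08 and 1.16 to -0.64, -0.79 and -0.94 on pRho, an effect of -1.87 ± 0.11, and by -1.45 ± 0.15 on pCrx.

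On pCrx the lowest effect was at chr8:61013519-61013618, whose parent had the highest activity of all members' parents there. The parent gave 2.71, 2.95 and 2.45 and the changed element -0.61, -0.80 and -0.49. Its effect of -3.35 ± 0.14 (SE, n = 3; edgeR adjusted p = 2.3e-15) leaves 9.83% of the activity. On pRho the element went from 1.39, 1.27 and 1.46 to 0.67, 0.74 and 0.34, so the changed element stayed above the typical element in every replicate. That effect was -0.80 ± 0.11, and the difference between promoters was -2.55 ± 0.19 (adjusted p = 2.4e-15).

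Large falls on pCrx beside smaller ones on pRho were also seen at some sites with a pair of TAAT cores. Site 2 at chr14:35424931-35425030, with a TAATCC arm, went from 2.17, 2.15 and 2.08 to -0.87, -0.64 and -0.53 on pCrx. On pRho it went from 1.32, 1.19 and 1.35 to 0.77, 0.90 and 0.73. Replicates of parent and changed element did not overlap on either promoter, yet the effects were -2.80 ± 0.13 and -0.49 ± 0.10. The effect on pRho did not pass with barcodes as units (limma, adjusted p = 0.063). At chr9:120197264-120197363, ataAtctcaTtat, pCrx values went from 1.36, 0.58 and 1.22 to -1.45, -2.02 and -1.32. The second replicate was the lowest for both the parent and the changed element. Effects were -2.64 ± 0.21 on pCrx and -0.54 ± 0.12 on pRho, a difference of -2.10 ± 0.24.

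The element at chr3:104769978-104770077, ctaAtcctcTttg, fell on both promoters. It went from 1.73, 1.56 and 1.39 to -0.56, -1.18 and -0.68 on pCrx and from 0.95, 1.13 and 0.79 to -0.42, -0.45 and -0.54 on pRho. Effects were -2.36 ± 0.16 and -1.43 ± 0.11, so 19.5% and 37.2% of the activity were left.

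The members with the highest effects on pRho had parents below the typical element there. Site 1 at chr7:135012900-135012999 had the highest effect on pRho. The parent gave -1.96, -2.02 and -1.78 and the changed element 0.48, 0.41 and 0.57, an effect of 2.41 ± 0.12 (edgeR adjusted p = 3.3e-24) or 5.33 times the parent's activity. On pCrx values went from -1.18, -1.56 and -1.66 to 1.33, 1.64 and 1.31, an effect of 2.89 ± 0.14. Every replicate of the changed element was above the typical element on both promoters and every replicate of the parent below it. The change takes away 1 of 2 TAAT sequences, a TAATCC arm paired with AAAT.

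At chr14:48846549-48846648 both sites of the element gave higher values after the change. Their effects are measured against the same parent and so are not independent. That parent had the lowest cDNA count of any member or parent, 60 reads in a pCrx library. Site 1 went from -3.23, -2.99 and -2.53 to -0.17, 0.27 and 0.45 on pCrx, while its pRho values went from -2.66, -2.32 and -2.24 to -0.55, -0.37 and -0.47. Its effects were 3.05 ± 0.25 and 1.94 ± 0.14. Site 2, ataAtcagcTtag, rose by 2.44 ± 0.25 on pCrx, where the changed element gave -0.65, -0.32 and -0.32. Its effect on pRho was 0.56 ± 0.16 (adjusted p = 0.002). That call was lost with barcodes as units (limma, adjusted p = 0.67) and without replicate 1, where the effect had an adjusted p of 0.053.

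The element at chr19:38805436-38805535, whose site pairs TAAG with AAAT, rose on both promoters. On pRho it went from -2.60, -1.92 and -2.13 to 0.32, -0.18 and 0.13, an effect of 2.30 ± 0.13. On pCrx it went from -0.70, -0.54 and -0.46 to 0.24, 0.36 and 0.08, an effect of 0.79 ± 0.14 that did not pass with barcodes as units (limma, adjusted p = 0.14). These 3 regions held all 4 members that rose on both promoters.

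Some low parents rose on pCrx alone in the separate tests. At chr1:134310730-134310829, ttaAtcctcTttg, the parent had the lowest pCrx activity of all members' parents, with -3.12, -3.60 and -2.90. The changed element gave -1.43, -1.51 and -1.11, an effect of 1.83 ± 0.19. On pRho the values were -2.25, -2.11 and -2.20 for the parent and -2.29, -2.07 and -2.27 for the changed element, which overlap. The effect there was -0.02 ± 0.12, and without the barcode of highest ratio in each element it was 0.46 (edgeR adjusted p = 0.0027). The promoter difference was 1.85 ± 0.22 (adjusted p = 1.2e-09). Site 2 at chr11:72488951-72489050, ttaAtcctcTtaa, lies in the element with the most copies of TAAT among all parents, 6. Its effects were 1.33 ± 0.22 on pCrx and 0.02 ± 0.15 on pRho, with a difference of 1.31 ± 0.27. That difference had an adjusted p of 0.13 with barcodes as units (limma).

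At the other end, the members with effects nearest 0 on both promoters still lost both cores. Site 2 at chr7:135012900-135012999, ggaAgaggaTtag, gave -1.56, -1.85 and -1.76 on pRho against -1.96, -2.02 and -1.78 for the parent, which overlap. Effects were 0.21 ± 0.14 on pRho and 0.12 ± 0.17 on pCrx. The element at chr5:31471254-31471353, ttaAtaagaTtag, had effects of -0.01 ± 0.11 and 0.05 ± 0.16, although the change removed 2 of its 4 TAAT sequences. At chr2:128115365-128115464, ctaAtcctcTttc, effects were -0.09 ± 0.10 and 0.09 ± 0.13. In all, 7 members passed on neither promoter.

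The direction or the size of the effect differed between promoters for many members. The effect was lower on pCrx than on pRho for 33 members, higher for 20 and not called different for 21 (edgeR, test of the promoter difference itself, adjusted over all pairs). Over all modified elements 23.7% were lower and 15.1% higher. The median difference was -0.22, beside -0.08 over all, and the range was -2.59 to 1.88. On barcodes, 21 were lower and 9 higher, against 10.1% and 3.71% of all. Both effects were called falls for 36 members and rises for 4, and 8 members had calls in opposite directions. All 8 passed the test of the difference, and 5 kept both calls with barcodes as units. The share of such joint calls over all modified elements was not computed, nor that for the 7 members passing on neither promoter. These counts are therefore descriptions only.

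Both sites at chr3:55592644-55592743 moved in opposite directions on the 2 promoters. The parent gave -0.73, -0.71 and -0.49 on pRho and 1.36, 1.51 and 1.58 on pCrx. With site 1, gaaAggggaTtag, changed, the values were 0.17, 0.43 and 0.46 on pRho and -0.37, 0.22 and -0.24 on pCrx. With site 2, ttaAtccccTtag, changed they were 0.04, 0.03 and 0.12 on pRho and -0.33, -0.31 and -0.27 on pCrx. In each case the changed element was above the parent in all pRho replicates and below it in all pCrx replicates, and the changed elements lay near the typical element on both promoters. Effects were 0.99 ± 0.13 and -1.60 ± 0.16 for site 1, and 0.71 ± 0.12 and -1.78 ± 0.14 for site 2. Their promoter differences, -2.59 ± 0.21 and -2.49 ± 0.18, were among the 3 most negative of the members, beside the -2.55 at chr8:61013519-61013618.

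The same order, a rise on pRho and a fall on pCrx, was found for 4 more members. At chr17:27570392-27570491, aaaAgaggaTtac, values went from -1.64, -1.41 and -1.26 to -0.69, -0.39 and -0.55 on pRho, an effect of 0.88 ± 0.16. They went from 1.07, 1.32 and 1.45 to 0.35, 0.41 and 0.17 on pCrx, an effect of -0.97 ± 0.15. The other 3 members of this kind are named because their calls were opposite, which was seen in their values. Site 2 at chr6:97649150-97649249 had effects of 0.53 on pRho and -1.11 on pCrx, chr3:51187481-51187580 of 0.57 and -0.53, and chr12:36820012-36820111 of 0.24 and -0.78. The reverse order was found at chr12:5285727-5285826, with -1.04 on pRho and 0.72 on pCrx, and at chr2:125495585-125495684, with -1.31 and 0.42. The rises at chr12:36820012-36820111, chr12:5285727-5285826 and chr2:125495585-125495684 did not pass with barcodes as units (limma, adjusted p = 0.21, 0.93 and 0.41).

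For 60 members both changed bases lie inside the saturated window of their region, which spans the 13 bp of the site. For 3 members 1 changed base lies inside, and for 11 none does. Where both bases lay inside, 41 members fell and 8 rose on pRho with a median effect of -0.65, and 42 fell and 5 rose on pCrx with a median of -0.98. The 3 members with 1 base inside had effects of -0.23 to -0.03 on pRho and -0.45 to -0.37 on pCrx, of which 1 and 2 were called falls. Of the 11 members outside, 2 fell and 5 rose on pRho, with a median of -0.07, and 6 fell and 3 rose on pCrx, with a median of -1.11. The lowest and highest effects outside were -0.50 and 2.41 on pRho, and -2.80 and 3.05 on pCrx.

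In each of the 11 regions with 2 members, 1 member lay inside the window and the other wholly or partly outside, so the sites can be set against each other in the same element. On pRho the changed element of the inside site was lower than that of the outside site in 8 regions and higher in 2 (edgeR test between the 2 changed elements, adjusted with all pairs of the library). On pCrx it was lower in 4 and higher in 3. In the same fit 60.1% and 54.3% of all tests passed in either direction. Nearly all of those tests set a modified element against its parent, which is a different kind of comparison. A share for pairs of changed elements was not computed. On barcodes the inside site was lower in 5 regions and higher in 0 on pRho, and lower in 2 and higher in 3 on pCrx. The widest gap was at chr7:135012900-135012999, with -2.21 ± 0.11 on pRho and -2.78 ± 0.14 on pCrx. There the outside site is the one that rose and the inside site is among those nearest 0. On pRho the next gaps were alike, -1.38 ± 0.12 at chr14:48846549-48846648, -1.38 ± 0.12 at chr3:107897193-107897292 and -1.38 ± 0.14 at chr11:12271115-12271214. The opposite order on pCrx was seen at chr14:35424931-35425030, where the outside site 2 with its pair of TAAT cores was the lower and the difference was 1.68 ± 0.16. At chr7:123275930-123276029 it was 1.04 ± 0.13 and at chr11:72488951-72489050 1.02 ± 0.21.

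Members were also described by their cores. The 16 with TAAG in both arms had a median effect of -1.02 on pRho, with 13 falling and 3 rising, and of -0.86 on pCrx, with 12 falling and 0 rising. The 5 with TAAT in both arms had -0.54 on pRho and -2.45 on pCrx, and 4 fell on each promoter. The exception on both was chr5:31471254-31471353. Members with TAAT and TAAG had medians of -0.32 and -0.53, with 11 and 12 falling and 5 and 5 rising. Those with TAAT and another core had -0.23 and -1.09, with 10 and 16 of 20 falling, and those with TAAG and another core -0.26 and -0.55, with 6 of 12 falling on each. No test was made between these classes, since members are not replicates of a class and the classes also differ in their parents.

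By spacer, the 12 members with CTG had the lowest median on pRho of the 4 commonest, -1.34, with 10 falling and 1 rising. On pCrx the medians of the 4 spacers lay close together, at -1.07 for AGG, -0.93 for CAG, -1.05 for CTG and -1.07 for CCT. On pRho they were -0.31 for AGG, -0.48 for CAG and -0.39 for CCT. These medians are descriptions without a test.

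The 4-letter sequence TAAT was searched on both strands of each element, and overlapping matches were counted. It occurs in 93.5% of the unmodified elements of the library and in 85.7% of the parents here, with 0 to 6 copies in a parent. In 16 members the changed element held no TAAT, either because the change removed the last one or because the parent had none. Of these, 14 fell and 2 rose on pRho with a median effect of -1.20, and 13 fell and 1 rose on pCrx with a median of -1.17. Of the 58 with a TAAT left, 30 fell and 11 rose on pRho, with a median of -0.27, and 37 fell and 7 rose on pCrx, with a median of -0.81. For 11 members the library holds no further element with all homeodomain sites of the region changed. Among them 10 fell and 1 rose on pRho, with a median of -1.37, and 9 fell and 0 rose on pCrx, with a median of -1.33. In the 63 members with such an element the medians were -0.32 and -0.91. No test was made between these groups. Their parents were not matched in activity, and effects differed with the level of the parent, as described below.

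Sites of identical sequence occurred in 4 pairs of elements and are shown because the same change was read there in different surroundings.
chr1:44648696-44648795 and chr3:107897193-107897292: ataAgcagcTtag
chr4:40800262-40800361 and chr7:82441873-82441972: caaAgaggaTtaa
chr11:101945658-101945757 and chr12:36820012-36820111: ctaAgcagcTtag
chr15:58783857-58783956 and chr8:24356754-24356853: ctaAgctgcTtac
The first pair gave -1.57 ± 0.09 and -1.87 ± 0.11 on pRho and -1.33 ± 0.13 and -1.45 ± 0.15 on pCrx. The last pair gave -1.37 ± 0.12 and -1.37 ± 0.11 on pRho and -0.53 ± 0.16 and -0.95 ± 0.14 on pCrx. In both pairs the parents were above the typical element on both promoters. The second pair gave -1.55 ± 0.10 and -0.36 ± 0.14 on pRho, from parents at 1.68 and -0.44, and -1.74 ± 0.13 and -1.16 ± 0.19 on pCrx. At chr7:82441873-82441972 the pRho call was lost with barcodes as units, where the effect was 0.04 (limma, adjusted p = 0.95). The third gave -1.29 ± 0.15 and 0.24 ± 0.10 on pRho, from parents at -1.90 and 0.22, and -0.21 ± 0.26 and -0.78 ± 0.11 on pCrx. At chr11:101945658-101945757 the pRho call was lost with barcodes as units, where the effect was -1.32 ± 0.60 (limma, adjusted p = 0.12). Differences between elements with the same site were not tested.

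For the 60 members inside the window the library also holds each changed base alone, so the combined change can be set against its parts. On pRho the median effects were -0.39 for the first base, -0.46 for the second and -0.65 for both together, where the median of the sums was -1.0. On pCrx they were -0.71, -0.71 and -0.98, with a median sum of -1.54. The first base alone lowered 35 members on pRho and 38 on pCrx, and the second 36 and 43. Both single changes were called falls in 29 members on pRho and 36 on pCrx. Over all modified elements 43.7% fell on each promoter. Shares over the single parts of all combinations were not computed, so these counts are descriptions only.

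The combined effect was higher than the sum in 22 of the 60 members on pRho and 30 on pCrx, and lower in 11 and 2 (edgeR test of the combined effect minus the sum, adjusted over 290 such combinations). Lower did not mean a deeper fall on pCrx, where the sums were 3.92 and 3.48 and the pairs rose by 2.44 and 1.83. These were site 2 at chr14:48846549-48846648 and chr1:134310730-134310829. On pRho the lower calls had a sum above 0 apart from chr8:61013519-61013618, with a sum of -0.23 and a pair of -0.80. Over all 290 combinations 36.2% and 40.0% were higher and 22.4% and 12.1% lower. The median deviation was 0.19 on pRho and 0.53 on pCrx, beside 0.11 and 0.32 in the separate series of 230 combinations. Barcodes as units gave 7 higher and 2 lower on pRho, where 8.28% and 7.59% of all passed. They gave 21 and 2 on pCrx, where 24.9% and 7.61% of all passed.

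The pair was also tested against each base alone. The combined change was lower than the first base alone in 27 members on pRho and 21 on pCrx, and higher in 8 and 4 (over all combinations 32.8% and 27.9% were lower, 17.6% and 7.24% higher). Against the second base alone it was lower in 23 and 11 members and higher in 6 and 8 (over all 31.4% and 18.3% lower, 16.2% and 11.0% higher). A test that was not passed does not show that the values were equal.

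The largest deviations from the sum on pCrx were upward. At chr1:182368850-182368949 the first base alone gave -2.26, -2.35 and -1.95 in the 3 replicates, the second -2.20, -2.41 and -1.89, and both together an effect of -2.45 ± 0.15. Each single change thus came close to the value of the pair, whose sum of parts is -4.35, and the deviation was 1.90 ± 0.21. At chr8:41511143-41511242 the parts were -1.92 ± 0.16 and -2.11 ± 0.16 and the pair -2.15 ± 0.16, a deviation of 1.88 ± 0.22. Site 2 at chr3:107897193-107897292 had parts of -1.60 ± 0.17 and -1.71 ± 0.17, a pair of -1.45 ± 0.17 and a deviation of 1.86 ± 0.24. All 3 deviations passed with barcodes as units (limma, adjusted p = 8e-05, 2.2e-06 and 0.0053).

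On pRho the same element at chr1:182368850-182368949 deviated by 1.75 ± 0.15, with parts of -1.51 and -2.17. Larger deviations were measured at chr16:38983129-38983228, ttaAtctgcTtag, with 2.07 ± 0.19, and at chr11:61971078-61971177, gaaAgaggaTtag, with 1.79 ± 0.22. In both, each single base lowered the element, with effects of -1.41 and -0.97 in the first and of -0.89 and -0.90 in the second. The combined effects were -0.32 and 0.00. None of these 3 deviations on pRho passed with barcodes as units (limma, adjusted p = 0.063, 0.13 and 0.53 in the order named).

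At chr8:61013519-61013618 the parts differed by arm and promoter. The right arm, which holds TAATCC, gave -2.67, -2.55 and -2.36 alone on pCrx, and the left arm, which holds TAAG, gave -0.66, -0.82 and -0.85. Their sum of -3.32 lay within the error of the pair, with a deviation of -0.02 ± 0.21. On pRho the single bases had effects of -0.03 ± 0.12 and -0.19 ± 0.11, neither of which passed, and the pair fell by 0.80, a deviation of -0.57 ± 0.16 that did not pass with barcodes as units (limma, adjusted p = 0.15). Altogether 4 members on pRho and 0 on pCrx fell as a pair without either single base being called a fall. These counts join separate calls, and their share over all combinations was not computed, so they are descriptions only.

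In the members that pair TAAT with TAAG, the TAAT arm alone had the lower effect in 16 of 19 on pRho, with medians of -0.48 for the TAAT arm and -0.09 for the TAAG arm. On pCrx it was lower in 14 of 19, with medians of -0.73 and -0.39. In the 16 members that pair TAAT with a core other than TAAG, the medians on pRho were -0.77 for the TAAT arm and -0.42 for the other, and on pCrx -0.96 and -0.54. The TAAT arm was lower in 12 and 9 of these. In the 6 members that pair TAAG with a core other than TAAT, the TAAG arm was lower in 5 on pRho and 6 on pCrx. The medians were -0.79 for the TAAG arm and -0.28 for the other on pRho, and -0.86 and -0.37 on pCrx.

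Each saturated window held 38 or 39 single-base changes, 2337 over the 60 members. The member was lower than every single change of its window in 9 cases on each promoter, and the median member had 4 single changes below it on each. At most 2 single changes lay below the member in 24 cases on pRho and 28 on pCrx. At chr8:41511143-41511242 the lowest single change on pRho was T10A, counted from the first base of the window, with an effect of -2.35 beside -2.91 for the member. At chr8:61013519-61013618 the lowest on pCrx was T10G with -2.54 beside -3.35, which is one of the member's own bases. At chr10:19053567-19053666 the window held single changes below the member, the lowest being T11C with -2.68 on pRho beside -2.27. As the lowest of many measured values, these single effects tend to lie too low, and no test was made.

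The library also holds, for 63 members in 52 regions, an element with all homeodomain sites of the region changed. On pRho the median effect was -0.32 for the dimer-site change and -0.96 for all sites, and the element with all sites changed was the lower for 43 of 63. On pCrx the medians were -0.91 and -1.04, and all sites were lower for 37 of 63. In regions with 2 members the same element with all sites changed, and the same parent, entered both comparisons, so the 63 are not independent.

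The members' effects differed with the level of the parent, which itself enters each effect with a negative sign. Parents were classed by edgeR's test of their own activity, at an adjusted p under 0.05, as above or below the typical element or as not called. On pCrx 48 of the 49 members whose parent was called above fell and 0 rose. Of the 18 whose parent was called below, 0 fell and 8 rose, and of the 7 with a parent not called 2 fell and 0 rose. On pRho 32 of 38 members with a parent called above fell and 1 rose, and of 28 with a parent called below 8 fell and 12 rose. Of the 8 with a parent not called there, 4 fell and 0 rose. Over all modified elements with a parent called above, 62.4% fell and 4.10% rose on pCrx and 55.3% and 5.27% on pRho. With a parent called below, 12.1% fell and 26.1% rose on pCrx and 25.3% and 34.0% on pRho.

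The authors' deposited table of comparisons lists 72 of the members on each promoter. At an adjusted p under 0.05, 31 fell and 10 rose on pRho in the authors' deposited table, and 40 fell and 6 rose on pCrx. Its log2 fold changes had the same sign as the effects given here in 68 and 67 members. The median absolute difference between the authors' deposited table and these effects was 0.05 on pRho and 0.06 on pCrx, and the largest was 0.47 and 0.90.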

How the data were processed

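Per the file headers the deposited counts are whole reads of each barcode in 12 libraries. How reads were matched to barcodes was not given in the sources used here. Coordinates are in mm9, the build named by the submitters' processing notes. The deposited oligo table gave names, sequences and changed positions, listed per the file headers. The authors' deposited comparisons hold log2 fold changes and adjusted p-values. The authors' expression table was not used.

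Barcode amplicons came from 21 and then 6 PCR cycles per the labels' protocols. Without molecular identifiers reads are not independent molecules.

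Counts were summed over barcodes per element and scaled by TMM (R 4.3.3, edgeR 4.0.16). Pairs with at least 10 reads in each DNA library were fitted with an allele by cDNA/DNA interaction, for all 13717 pairs, and a three-way interaction gave the promoter difference. Combinations were fitted over the 4 elements involved. Barcodes as units used limma 3.58.1 on log2(cDNA + 1) minus log2(DNA + 1), for barcodes with at least 30 DNA reads over the 3 replicates. Replicate values used a pseudocount of 0.5. DESeq2 1.42.0, other scalings, filters and left-out replicates were alternatives. The fits were tested on simulated data.

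Same-numbered cDNA and DNA libraries came from 1 pool of retinas per the labels' protocols, so the numbers pair them. Deviations of same-numbered libraries correlated between -0.0391 and 0.0504. No fit used the pool as a block. A fit with each library as a block, which pairs parent and changed element within a library, ended none of the 57 and 58 calls.

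Named members were the 5 lowest and 5 highest effects past the threshold per promoter with the same sign in every replicate, the 3 largest promoter differences, the 5 largest outside the window, the 3 nearest 0 and the 3 largest deviations from the sum per promoter. Members and lists were chosen with earlier results of these data known.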

Additional observations from a re-analysis of the deposited data

Results flagged for a closer look

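For 19 of the named members the effect differed between the promoters in the test of the difference itself (edgeR quasi-likelihood test, Benjamini-Hochberg adjusted over all pairs). Differences are given as the effect on pCrx minus that on pRho. Over all modified elements 38.7% passed this test. That share is no yardstick for the 19, because named members were picked by the size of their effects. Some were picked for the promoter difference itself.

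The effect was lower on pCrx for 10 of them. The difference was -2.59 at site 1 and -2.49 at site 2 of chr3:55592644-55592743, -2.55 at chr8:61013519-61013618, -2.31 at site 2 of chr14:35424931-35425030 and -2.10 at chr9:120197264-120197363. It was -1.86 at chr17:27570392-27570491, -1.51 at chr19:38805436-38805535, -0.94 at chr3:104769978-104770077, -0.72 at chr11:61971078-61971177 and -0.51 at chr1:182368850-182368949.

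The effect was higher on pCrx for the other 9. The difference was 1.88 at site 2 and 1.11 at site 1 of chr14:48846549-48846648, 1.85 at chr1:134310730-134310829, 1.31 at site 2 of chr11:72488951-72489050 and 1.10 at chr10:19053567-19053666. It was 1.02 at chr13:44327013-44327112, 0.76 at chr8:41511143-41511242, 0.72 at chr16:38983129-38983228 and 0.48 at site 1 of chr7:135012900-135012999.

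With barcodes as units 14 of the 19 differences passed. The 5 that did not were those at chr11:61971078-61971177, site 2 of chr11:72488951-72489050, chr16:38983129-38983228, chr1:182368850-182368949 and site 1 of chr7:135012900-135012999 (limma, adjusted p = 0.43, 0.13, 0.36, 0.13 and 0.72).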

How the results depend on the processing

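Other scalings, filters and DESeq2 left the counts of falling and rising members within 1.5 times. With barcodes as units, rising members numbered 8 instead of 13 on pRho and 5 instead of 8 on pCrx, promoter differences 30 instead of 53, and deviations from the sum on pRho 9 instead of 33. The median effect on pRho of -0.46 was -0.55 with barcodes as units and -0.51 without the barcode of highest ratio. The effect at chr1:134310730-134310829 on pRho turned from -0.02 to 0.46 without that barcode. The cause was not tested.

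Leaving out each replicate gave a median of -0.45 to -0.42 on pRho and -0.99 to -0.91 on pCrx, 40 to 42 falls and 10 to 11 rises on pRho, 49 to 50 falls and 7 to 8 rises on pCrx, 43 to 51 promoter differences, and 28 to 32 and 26 to 29 deviations from the sum. Each library was also entered as a block, which compares elements inside 1 library and leaves same-numbered cDNA and DNA libraries unpaired. Falls then numbered 44 for pRho and 51 for pCrx, and rises 13 and 9. Promoter differences came to 55, and deviations from the sum to 34 for either promoter.

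Of 506 alternative values for the 46 named effects, 487 kept their direction and side of the threshold, 4 no longer passed, 2 newly passed and 13 changed sign. Besides the 0.46 above, the changes of sign were in values that passed neither before nor after. Leaving out each replicate, effects on pRho ranged from -0.15 to 0.19 at chr11:61971078-61971177, from -0.13 to 0.22 at site 2 of chr11:72488951-72489050 and from -0.06 to 0.05 at chr5:31471254-31471353. On pCrx they ranged from -0.04 to 0.17 at chr5:31471254-31471353 and from -0.08 to 0.28 at site 2 of chr7:135012900-135012999. Without the barcode of highest ratio the effect was 0.01 at chr5:31471254-31471353 on pRho and -0.25 at chr16:38983129-38983228 on pCrx. With barcodes as units it was 0.25 at chr1:134310730-134310829, 0.10 at chr2:128115365-128115464 and 0.07 at chr5:31471254-31471353 on pRho, and -0.18 at chr16:38983129-38983228 on pCrx. Barcodes as units kept 43 of 57 calls on pRho and 53 of 58 on pCrx. With 6 or 7 barcodes an element, and at least 244 DNA and 60 cDNA reads each, small effects remain uncertain.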
